A study of Mus musculus with 51 samples.

Results

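Cloned stromal cell lines from the mouse aorta-gonad-mesonephros region (AGM) were compared with cloned stromal lines from mouse fetal liver (FL), on 12 of the 51 arrays of the series. The AGM arrays were 6: 3 each of UG26.1B6 and UG26.3B5, both derived from (CBAxC57BL/10)F1 embryos at embryonic day 11. The FL arrays were also 6: 3 each of AFT024 and BFC012 grown to confluence, both derived from C57BL/6 fetal liver at embryonic day 14.5. All 4 lines were cultured on gelatin at 33 °C to confluence, and 100 ng of total RNA per array was hybridised. Each line is 1 clone, so a tissue is represented by 2 clones. Tissue, mouse strain and embryonic age change together between the groups and cannot be told apart. The labels do not say that the 3 arrays of a line came from separate cultures, and where they did not, the p-values between lines reflect technical scatter alone. UG26.1B6 and AFT024 are labelled as supportive of haematopoietic stem and progenitor cells, UG26.3B5 as less supportive and BFC012 as non-supportive, so support differs within each tissue.

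The AGM is the embryonic region around the dorsal aorta in which the first adult-type haematopoietic stem cells arise, and the fetal liver is the organ in which they then expand. Stromal cells of both sites are mesenchymal cells that make extracellular matrix, secreted growth factors and adhesion molecules, and cloned lines of them are used as feeder layers for haematopoietic stem cells in culture. Genes were read by the pattern that a tissue difference requires with 2 clones a side: both lines of 1 tissue above both lines of the other.

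The lines had the expression of mesenchymal stroma. All 12 stromal markers examined lay above the first quartile of all genes (5.74 on the log2 scale) in every line, with Vim between 13.38 and 13.64, Sparc between 12.38 and 13.09 and Fn1 between 12.28 and 12.94 over the 12 arrays. The pan-leukocyte gene Ptprc, the myeloid genes Spi1 and Itgam, the endothelial genes Tek and Emcn, and the liver parenchyma genes Alb, Afp, Ttr and Epcam lay below the first quartile in all 4 lines. In every line, the liver genes Apoa1 (7.21 to 7.45), Hnf4a (6.68 to 6.80) and Fgb (5.85 to 5.95) lay above the first quartile. The haematopoietic genes Tyrobp (6.26 to 6.35) and Gata1 (6.19 to 6.34) also lay above the first quartile in every line. Other endothelial markers, Pecam1, Tie1 and Esam, lay above it in every line at 6.27 or less, and Kdr, the VEGF receptor, was higher in the AGM lines by the rule given below (6.30 and 6.90 against 5.53 and 5.60). Flt1, another VEGF receptor, was higher in the FL lines, with a difference of -1.40, and the other 16 of 18 measured endothelial markers did not pass. Each direction thus held 5.56% of the endothelial markers, near the shares of all genes (4.01% AGM-high and 3.72% FL-high). Of 20 measured hepatic stellate cell markers, Des and Pdgfrb were higher in the AGM lines (10%, against 4.01% of all genes). Dcn was higher in the FL lines (5%, against 3.72%) and 17 did not pass. Among the latter, Lrat lay at 5.83 in AFT024 and 5.93 in BFC012 against 6.01 and 5.77 in UG26.1B6 and UG26.3B5, and Lhx2 at 6.99 and 7.56 against 6.93 and 6.65. The mesothelial genes Upk1b (11.04), Upk3b (11.18) and Wt1 (9.03) stood out in BFC012 against at most 6.11, 6.46 and 7.17 in the other lines, while Msln was highest in AFT024 (11.05, against 8.75 in BFC012) and Krt19 was higher in the AGM lines (9.79 and 10.46 against 6.32 and 7.77). Of 18 measured haematopoietic markers, 3 were higher in the AGM lines by the same rule (16.7%, against 4.01% of all genes) and 15 did not pass. The 3 were the lysosomal protein Cd68 (9.67 and 10.21 against 8.19 and 8.03), Csf1r (6.64 and 6.76 against 6.25 and 6.10) and Lyz2. Lyz2 lay below the first quartile of all genes in all 4 lines (5.28 and 5.36 against 4.85 and 4.86). Summed as a mean over 8 defining haematopoietic markers the lines lay at 6.34, 6.39, 6.06 and 6.06, and the part of blood cells in the results was not tested beyond the low Ptprc, Spi1 and Itgam signals.

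Values are log2 signals of the deposited array normalization, and a difference of 1 is a factor of 2 in signal. Arrays of a line correlated at 0.991 or more, and the line means of UG26.1B6 and UG26.3B5 correlated at 0.994, those of AFT024 and BFC012 at 0.972, and the cross-tissue pairs at 0.963 to 0.975, each over 19938 genes that are not independent of each other. The pair of AGM clones differed from each other in 792 genes (3.97% of 19938) and the pair of FL clones in 4388 (22%), by limma with Benjamini-Hochberg adjustment at 0.05.

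Both AGM line means lay above both FL line means for 4836 genes, and both FL means above both AGM means for 4178, together 9014 of 19938 genes (45.2%), a count that carries no test. With 2 lines a tissue, many genes separate by a random order of the 4 line means alone, so this share does not measure a tissue effect. In 2211 genes (11.1%) the 6 arrays of 1 tissue also lay above all 6 of the other, with the AGM arrays higher in 5.55% of all genes and the FL arrays in 5.54%. A gene was called when all 4 AGM-against-FL contrasts had an adjusted p under 0.05 in 1 direction. This held for 1540 genes (7.72%), 799 higher in the AGM lines (4.01%) and 741 higher in the FL lines (3.72%). In 305 of them each of the 4 contrasts was also at least a factor of 2, 151 in the AGM and 154 in the FL direction. With the line as the unit, so that only 2 values a tissue enter, limma called 11 genes (0.0552%), while 2919 had an unadjusted p under 0.05. That count fell to 4 without replicate 2 of UG26.1B6, to 7 without replicate 3 of UG26.3B5 or replicate 1 of BFC012, and rose to 18 without replicate 2 of AFT024, 21 without replicate 3 of BFC012 and 34 without replicate 1 of UG26.3B5. The 11 were Slc6a15, Ifi202b, Glrb, Usp13, Fabp4 and Aqp7, higher in the AGM lines (0.0301% of all genes), and Cd34, Mid1, Nnmt, Dhrs4 and Eps8l2, higher in the FL lines (0.0251%).

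Of 35 genes listed for glycolysis and the response to low oxygen, 32 were measured, and 14 of these (43.8%, against 4.01% of all genes) were called higher in the AGM lines, while 1 was called higher in the FL lines. Sequence upstream of 3 of them is shown because genes of this response are commonly activated through hypoxia response elements, short sites bound by the factors HIF1A and EPAS1 with ARNT. Each sequence is the 250 bases before the start site in RefSeq (GRCm38.p6), read 5′ to 3′ on the gene's strand, in lower case with the letters ACGTG or GCGTG, or their reverse complements CACGT or CACGC, in capitals, and where these overlap the joined run is in capitals. Slc16a3 lies on the plus strand (chr11:120948817-120949066), Bnip3 on the minus strand (chr7:138909507-138909756) and Pfkl on the minus strand (chr10:78009808-78010057).

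Slc16a3: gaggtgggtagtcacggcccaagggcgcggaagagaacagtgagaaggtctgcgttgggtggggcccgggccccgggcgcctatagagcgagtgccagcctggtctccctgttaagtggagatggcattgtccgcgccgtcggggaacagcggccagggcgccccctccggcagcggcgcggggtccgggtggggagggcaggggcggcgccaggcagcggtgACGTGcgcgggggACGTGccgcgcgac

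Bnip3: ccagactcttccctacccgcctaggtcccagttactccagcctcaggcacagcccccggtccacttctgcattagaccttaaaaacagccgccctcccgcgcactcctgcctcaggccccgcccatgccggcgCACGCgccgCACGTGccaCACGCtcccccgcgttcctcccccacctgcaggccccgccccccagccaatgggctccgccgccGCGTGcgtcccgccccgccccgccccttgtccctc

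Pfkl: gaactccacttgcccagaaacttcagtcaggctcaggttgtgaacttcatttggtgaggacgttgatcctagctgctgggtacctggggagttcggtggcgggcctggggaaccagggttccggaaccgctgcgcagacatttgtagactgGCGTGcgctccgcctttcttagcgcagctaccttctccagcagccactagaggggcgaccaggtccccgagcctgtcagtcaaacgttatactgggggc

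The Slc16a3 window held 2 matches, the Bnip3 window 5 and the Pfkl window 1, where a CACGTG counts on both strands. Of the 32 measured list members, 29 had a promoter entry, and 22 of these (75.9%) held at least 1 match, compared with 10431 of all 27025 promoters (38.6%). Of the 14 called higher in the AGM lines, 13 had an entry and 10 of these (76.9%) held a match, a share like that of the whole list. The windows of Vegfa, Aldoa and Pkm held none, which says only that these letters are not in those 250 bases. A match is a run of letters and no measured binding.

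Slc16a3 encodes the monocarboxylate transporter that exports lactate from glycolytic cells. Its 6 AGM arrays ran from 11.53 to 12.37 with a median of 12.04, and its 6 FL arrays from 6.94 to 8.08 with a median of 7.61. No AGM array overlapped an FL array, and the bone marrow lines BMC9 (7.96) and BMC10 (7.24) lay with the FL lines. The difference was 4.44 ± 0.412 (SE over line means, n = 2 lines a tissue), with an adjusted p of 0.098 for the line as unit and at most 1.25e-10 in the 4 contrasts. In the separately normalized other lines described below, Slc16a3 lay at 7.76 and 7.45 in the AGM lines AM14-1C4 and AM30-3F4. It lay at 7.29 and 7.17 in the FL lines 2012 and AFT011, a difference of 0.38 that was not called.

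**Figure D1:**
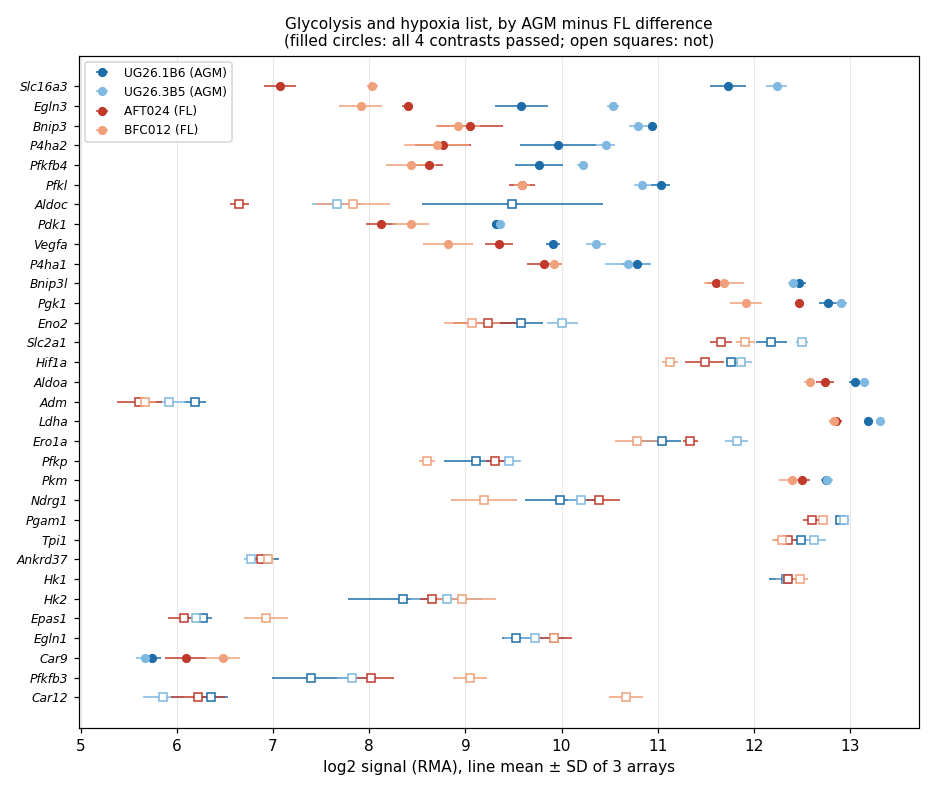
Log2 signal of the 32 measured members of the glycolysis and hypoxia list, shown as the mean ± SD of the 3 arrays of each line, blue for AGM and red for FL lines, with filled circles for genes called by all 4 contrasts and open squares for the rest. In the 14 genes called higher in the AGM lines both blue points lie right of both red points, and Slc16a3 has the widest gap.

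The other called members carried smaller differences and covered several steps of the pathway. Pfkl, the liver-type phosphofructokinase of the committed step, ran from 10.76 to 11.14 in the AGM arrays and from 9.43 to 9.69 in the FL arrays, a difference of 1.34 ± 0.0955. Pfkfb4, which makes the allosteric activator of phosphofructokinase, was higher by 1.47 ± 0.195, and Pdk1, the kinase that holds pyruvate dehydrogenase off, by 1.07 ± 0.135. The abundant enzymes Aldoa (0.44), Pgk1 (0.65), Pkm (0.31) and Ldha (0.41) were also called, each above 11.7 on every array.

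Members outside glycolysis itself moved the same way. Bnip3, a mitochondrial protein of mitophagy, ran from 10.71 to 10.97 in the AGM arrays and from 8.66 to 9.29 in the FL arrays, a difference of 1.88 ± 0.0977 with a largest adjusted p of 2.99e-06 in the 4 contrasts. Its relative Bnip3l was higher by 0.79 ± 0.0758. Egln3, an oxygen-sensing prolyl hydroxylase, was higher by 1.90 ± 0.409, the collagen prolyl hydroxylases P4ha1 and P4ha2 by 0.87 ± 0.0821 and 1.48 ± 0.198, and Vegfa, the angiogenic growth factor, by 1.05 ± 0.267. The member called in the FL direction was Car9, a carbonic anhydrase, at 5.61 to 5.85 in the AGM and 5.85 to 6.62 in the FL arrays, close to the first quartile of all genes. Members that did not pass included Slc2a1, the main glucose transporter, at 12.07 to 12.58 in the AGM and 11.53 to 12.03 in the FL arrays (largest adjusted p of the 4 contrasts 0.0606), and Hif1a itself (0.0826). Car12, another carbonic anhydrase, was high in BFC012 (10.67) against 6.22 in AFT024 and 6.35 and 5.86 in the AGM lines. The median difference over the 32 measured members was 0.431, and the number called in the AGM direction lay between 12 and 15 when an array was left out or the fit was changed. Oxygen, cell density and glucose in these cultures were not measured, and their part in these values was not tested.

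Beyond this list, the 14 genes with the widest gaps in the AGM direction, the gap being the smallest of the 4 contrasts, encoded transporters, receptors and enzymes. In both directions such genes were taken only from called genes whose arrays all separated by tissue, so their lack of overlap was set by the choice. Slc6a15, a sodium-dependent transporter of neutral amino acids (probe set 10366163), ran from 9.71 to 10.15 with a median of 9.90 in the AGM arrays and from 4.38 to 4.55 with a median of 4.49 in the FL arrays. Every AGM array was high, and the FL arrays lay below the first quartile of all genes. The difference was 5.44 ± 0.108, with an adjusted p of 0.0349 with the line as unit and at most 3.93e-13 in the 4 contrasts. BMC9 (4.44) and BMC10 (4.52) were as low as the FL lines.

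Other membrane proteins showed the same separation. Mme, the cell-surface peptidase neprilysin, ran from 9.49 to 10.33 in the AGM arrays and from 5.06 to 5.47 in the FL arrays, with a difference of 4.63 ± 0.231. Adcyap1r1, the receptor for the neuropeptide PACAP, ran from 10.55 to 11.75 against 6.54 to 6.77, with a difference of 4.51 ± 0.233. Neither gene had arrays that overlapped between tissues. Glrb, the beta subunit of the glycine receptor, differed by 3.89 ± 0.113 and passed with the line as unit (adjusted p = 0.0402), though not without replicate 2 of UG26.1B6, and Slc5a7, the high-affinity choline transporter, differed by 4.70 ± 0.929, with AFT024 (8.19) well above BFC012 (5.70). Sema6d, a transmembrane semaphorin, was higher by 4.16 ± 0.292.

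Fabp4, a fatty acid carrier of adipocytes and some endothelial cells, ran from 9.30 to 9.86 in the AGM arrays and from 5.48 to 6.48 in the FL arrays, and both BM lines lay on the AGM side (10.66 and 9.71). Aqp7, a glycerol channel, ran from 8.91 to 10.63 against 5.93 to 6.26. Both passed with the line as unit, at adjusted p = 0.0445 and 0.0489, but under 25 alternatives Aqp7 passed in 16 and Fabp4 in 15. Single arrays ended the call of Aqp7 (replicates 2 and 3 of UG26.1B6 and replicate 1 of UG26.3B5, AFT024 or BFC012) and that of Fabp4 (replicates 1 and 2 of UG26.1B6, 2 and 3 of UG26.3B5, 3 of AFT024, and 1 and 2 of BFC012). Ak4, a mitochondrial adenylate kinase, was higher by 4.09 ± 0.232, Hsd3b6, a steroid dehydrogenase with close paralogs, by 4.29 ± 0.289, and Irak3, a brake on Toll-like receptor signalling, by 4.13 ± 0.357. Tpsab1, a tryptase best known from mast cells, ran from 9.77 to 11.99 in the AGM arrays and from 5.69 to 6.02 in the FL arrays. Ptprc did not exceed 5.18 on any array. Cd68, Csf1r and Lyz2 were called higher in the AGM lines, but no array of Lyz2 exceeded 5.44, below the first quartile of all genes. The part of mast cells in the Tpsab1 signal was not tested.

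Serpinb9e, a protease inhibitor gene, had the widest mean difference of these 14 genes, 5.52 ± 0.654, with AGM arrays at 11.09 to 12.5 and FL arrays at 5.02 to 7.26. It belongs to a cluster of closely similar genes on chromosome 13, and a probe set can pick up transcripts of several of them. Its relatives Serpinb9b (2.29), Serpinb9c (3.30), Serpinb9d (2.78) and Serpinb6b (3.33) were also called higher in the AGM lines, so which members of the cluster were transcribed is uncertain. These relatives were picked out after their values were seen.

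**Figure D2:**
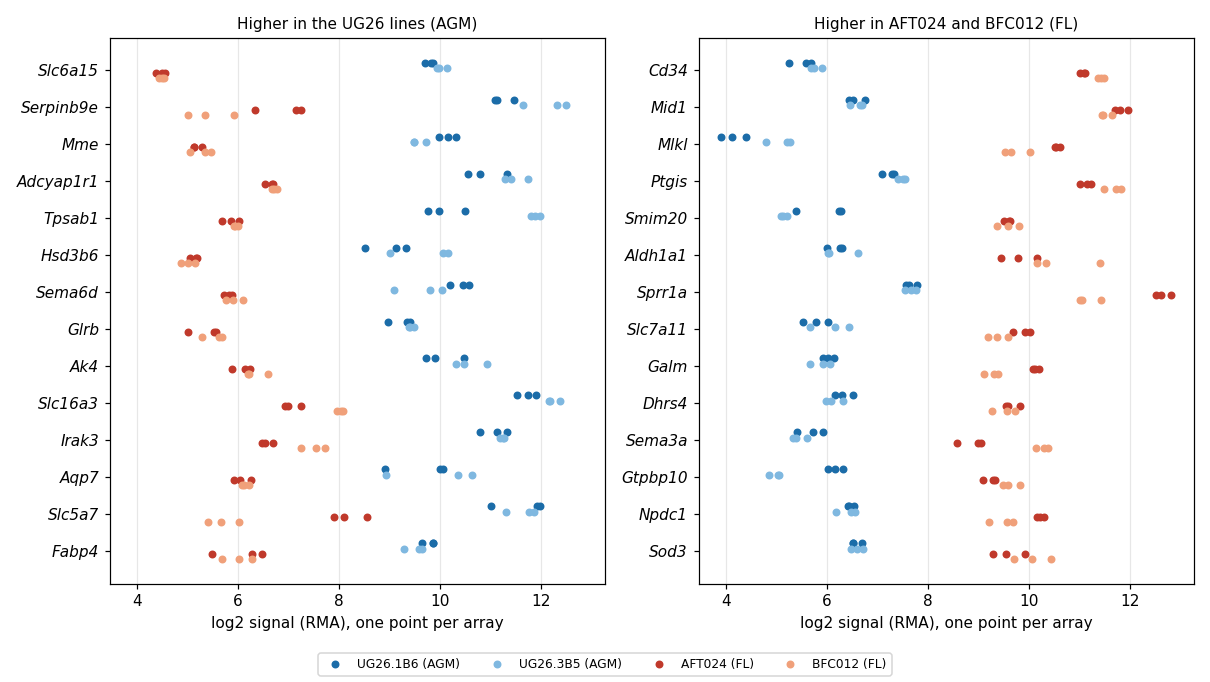
Log2 signal on each of the 12 arrays for the 14 genes with the widest gap in each direction, with 3 points a line and colours for the tissue. The 28 genes were taken only from those whose 6 arrays of the higher tissue lie above the 6 of the other, and Slc6a15 and Cd34 have the widest gaps.

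In the FL direction the widest gap was that of Cd34, a sialomucin found on haematopoietic stem cells, endothelium and some stromal progenitors (probe set 10352905). Its FL arrays ran from 11.01 to 11.5 with a median of 11.24, and its AGM arrays from 5.25 to 5.91 with a median of 5.69. All FL arrays were high and all AGM arrays near the first quartile of all genes, and the BM lines BMC9 (10.92) and BMC10 (10.18) lay on the FL side. The AGM minus FL difference was -5.61 ± 0.182, with an adjusted p of 0.0421 with the line as unit and at most 5.86e-12 in the 4 contrasts. It passed with the line as unit in 21 of 25 alternatives, and not without replicate 2 of UG26.1B6.

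Mid1, a microtubule-associated ubiquitin ligase encoded on the X chromosome, ran from 11.46 to 11.96 in the FL arrays and from 6.45 to 6.76 in the AGM arrays, a difference of -5.08 ± 0.13 (adjusted p = 0.0402 with the line as unit). Mlkl, the pseudokinase that executes necroptosis, ran from 9.54 to 10.62 in the FL arrays and from 3.91 to 5.27 in the AGM arrays, a difference of -5.53 ± 0.47. For both genes the arrays did not overlap, and both BM lines lay with the FL lines.

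Other FL-high genes encode enzymes and a transporter. Aldh1a1, which makes retinoic acid from retinaldehyde, ran from 9.45 to 11.42 in the FL arrays and from 6.01 to 6.62 in the AGM arrays. Dhrs4, a reductase of carbonyl compounds and retinal, differed by -3.36 ± 0.111 (adjusted p = 0.0421 with the line as unit, passed in 20 of 25 alternatives and lost without replicate 2 of UG26.1B6, 3 of UG26.3B5 or 1 of BFC012). Ptgis, prostacyclin synthase, ran from 11.01 to 11.83 against 7.09 to 7.56, and its BM values of 7.01 and 6.97 lay with the AGM lines. Slc7a11, which imports cystine for glutathione synthesis, differed by -3.69 ± 0.229, and Sod3, the extracellular superoxide dismutase, by -3.24 ± 0.192. The 6 FL arrays of each of these 5 genes lay above the 6 AGM arrays.

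The remaining FL-high genes of the set were of mixed kind. Sprr1a, a small proline-rich protein of the cornified envelope, ran from 11.02 to 12.82 in the FL arrays and from 7.56 to 7.78 in the AGM arrays. Sema3a, a secreted semaphorin, was higher in BFC012 (10.28) than in AFT024 (8.88), and both exceeded UG26.1B6 (5.69) and UG26.3B5 (5.44). Galm, a sugar mutarotase, differed by -3.74 ± 0.331, Smim20, a small mitochondrial membrane protein, by -4.02 ± 0.316, Gtpbp10, a GTPase of mitochondrial ribosome assembly, by -3.87 ± 0.472, and Npdc1 by -3.42 ± 0.28.

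Genes proposed as factors of the haematopoietic stem cell niche were called in both directions: 9 of 56 measured were higher in the AGM lines and 3 in the FL lines (16.1% and 5.36%, against 4.01% and 3.72% of all genes), and the median difference was 0.0281. Among secreted factors, Ptn, pleiotrophin, ran from 10.92 to 11.87 in the AGM arrays and from 6.83 to 9.70 in the FL arrays, with a difference of 3.07 ± 0.877. Postn, the matricellular protein periostin, differed by 2.75 ± 0.639 and Prg4, lubricin, by 3.44 ± 0.499. Angptl4 differed by 1.97 ± 0.723, and the cytokine Il6 by 1.65 ± 0.0678 at low signals (5.39 to 5.92 against 3.78 to 4.08). Vcam1, the adhesion receptor for VLA-4 on stem cells, was higher in the FL lines, at 10.58 to 10.82 against 9.20 to 9.81, and the cytokine Lif differed by -1.09 ± 0.169.

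The central niche factors Kitl, the ligand of the KIT receptor, and Cxcl12, the chemokine that retains stem cells, were not called. Kitl lay at 9.24, 9.41, 10.19 and 8.59 in UG26.1B6, UG26.3B5, AFT024 and BFC012, with a difference of -0.07, and Cxcl12 at 11.78, 10.7, 11 and 11.41, with a difference of 0.03. For both genes the lines of 1 tissue lay on either side of a line of the other.

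The Wnt genes showed a split between secreted inhibitors. Sfrp1, a secreted Wnt antagonist, ran from 9.22 to 10.71 in the AGM arrays and from 5.38 to 7.23 in the FL arrays, a difference of 3.38 ± 0.557. Sfrp2, its relative, ran the other way, from 10.5 to 12.09 in the FL arrays and from 7.95 to 9.91 in the AGM arrays, a difference of -2.39 ± 0.579. In all, 6 of 69 measured Wnt genes were higher in the AGM lines and 2 in the FL lines (8.70% and 2.90%, against 4.01% and 3.72% of all genes). The ligand Wnt5a (1.73 ± 0.214), its secretion factor Wls (0.62 ± 0.0882), the R-spondin receptor Lgr4 (2.00 ± 0.208), the receptor Fzd7 (1.36 ± 0.295) and the inhibitor Nkd2 (1.67 ± 0.193) were higher in the AGM lines.

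Of 57 measured genes of the TGF-beta and BMP pathway, 8 were called higher in the AGM lines and 1 in the FL lines (14% and 1.75%, against 4.01% and 3.72%). The first count was 4 without replicate 2 of UG26.1B6 and 4 without replicate 2 of AFT024, and none of the 8 reached a difference of 1 in all 4 contrasts. Ligands and receptors were among them: Tgfb2 (0.68 ± 0.0777), Bmp2 (0.63 ± 0.0785, near the first quartile of all genes), Tgfbr1 (0.88 ± 0.239) and Eng, the co-receptor endoglin (2.44 ± 1.23, at 11.07 and 11.43 in the AGM lines, 10.45 in BFC012 and 7.16 in AFT024). The BMP target genes Smad6 and Id3 were higher by 1.04 ± 0.227 and 0.80 ± 0.105. Ltbp4, a latent TGF-beta binding protein, was higher in the FL lines, at 8.46 to 9.75 against 6.73 to 7.10.

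Growth factor receptors were called in both directions. Fgfr1 ran from 11.66 to 12.05 in the AGM arrays and from 9.08 to 11.08 in the FL arrays, and Pdgfrb from 11.31 to 11.97 against 8.38 to 11.07. Fgfr2 and Egfr ran the other way, with FL arrays at 7.83 to 9.74 and 8.33 to 10.18 and AGM arrays at 6.06 to 7.21 and 6.83 to 8.10. Etv4, Etv5 and Spry4, which are commonly induced by FGF and EGF signalling through ERK, were higher in the FL lines, with AGM minus FL differences of -1.72 ± 0.374, -0.84 ± 0.146 and -1.29 ± 0.279. Of the 46 measured genes of this list, 5 were higher in the AGM lines and 6 in the FL lines (10.9% and 13%, against 4.01% and 3.72%). The first count was 3 without replicate 2 or 3 of UG26.1B6 or replicate 2 or 3 of AFT024. In the other lines described below, Etv4, Etv5 and Spry4 had the opposite sign, at 0.21, 0.93 and 0.68, and of these only Etv5 was called. Fgfr2 and Egfr differed there by -1.04 and 0.12.

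Fibrillar and associated collagens were called in the AGM direction in 5 of 24 measured genes (20.8%, against 4.01%), with a median difference of 0.154 over the list. Col1a2 ran from 11.15 to 12.14 in the AGM arrays, 9.74 to 10.24 in AFT024 and 7.01 to 7.10 in BFC012, so the FL lines differed from each other by more than AFT024 did from the AGM lines. Col12a1 ran from 11.09 to 11.52 in the AGM arrays and from 8.09 to 9.57 in the FL arrays. Col5a1, Col16a1 and Col7a1 differed by 0.86, 0.42 and 0.52, and the count of 5 was 3 without replicate 2 of UG26.1B6, of UG26.3B5 or of AFT024. Col1a1 was not called, with a difference of 0.37.

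Other matrix genes split by member. Lama5, the laminin alpha-5 chain of basement membranes, ran from 10.33 to 11.1 in the FL arrays and from 7.43 to 8.20 in the AGM arrays, a difference of -2.84 ± 0.136. Among proteoglycans and matricellular proteins, 9 of 72 were higher in the AGM lines and 4 in the FL lines (12.5% and 5.56%, against 4.01% and 3.72%). Sdc3, the heparan sulfate proteoglycan syndecan-3, was higher in the AGM lines by 3.49 ± 0.765. The small leucine-rich proteoglycans Dcn and Ogn, which bind collagen, were higher in the FL lines, with differences of -3.18 ± 1.00 and -2.71 ± 0.559, and Dcn lay at 7.69 to 8.38 in AFT024 and 10.51 to 11.27 in BFC012.

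Adhesion and guidance genes were called in both directions. Of 64 measured cadherin, integrin and related genes, 3 were higher in the AGM lines and 9 in the FL lines (4.69% and 14.1%, against 4.01% and 3.72%), the latter including Cd34, Vcam1, Pcdh19 (-1.60 ± 0.145), Itgb8 (-1.32 ± 0.127) and Itga3 (-0.74 ± 0.223). The first count was 5 without replicate 1 of BFC012. Jam2, a junctional adhesion molecule, was higher in the AGM lines by 2.57 ± 0.697, and Itgb3 by 1.93 ± 0.473. Guidance genes were called 7 to 7 among 75 (9.33% each way), with the semaphorin receptors Plxna4 (2.50 ± 0.146), Nrp2 (1.99 ± 0.616) and Plxna2 (1.26 ± 0.428) in the AGM direction and the ephrin receptors Epha7 (-1.98 ± 0.127), Epha4 (-1.96 ± 0.549) and Ephb4 (-1.99 ± 0.867) in the FL direction.

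Transcription factors of mesoderm showed 12 of 109 measured genes higher in the AGM lines and 8 higher in the FL lines (11% and 7.34%, against 4.01% and 3.72%). Sim2, a bHLH-PAS factor, ran from 8.11 to 8.72 in the AGM arrays and from 5.81 to 6.09 in the FL arrays, with a difference of 2.37 ± 0.109. Isl1, a LIM homeodomain factor of cardiac and limb progenitors, differed by 1.97 ± 0.341 and Meis1, a Hox cofactor, by 1.65 ± 0.164. In the FL direction were Zfpm2, a cofactor of GATA proteins (-2.70 ± 0.388), Gata6 (-2.50 ± 0.746), Foxf2 (-2.40 ± 0.373) and Nr2f2 (-0.64 ± 0.0794). The FL arrays of Gata6 spread from 9.58 to 11.85, above AGM arrays of 7.91 to 8.55.

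Of 37 measured Hox genes, which encode position along the body axis, 3 were called higher in the AGM lines (8.11%, against 4.01% of all genes). Hoxc10, a posterior member, ran from 7.56 to 8.23 in the AGM arrays and from 5.34 to 5.86 in the FL arrays, a difference of 2.25 ± 0.2. The BM lines BMC9 (8.80) and BMC10 (10.11) lay above both AGM lines. Hoxa6 and Hoxb9 differed by 1.24 ± 0.505 and 1.34 ± 0.693. The count was 1 without replicate 2 of UG26.3B5 and 1 without replicate 2 of BFC012. In other lines of the same tissues, described below, 5 of the 37 Hox genes were called higher in AGM, where 3.55% of all genes were. None of the 3 named here was among them. There Hoxc10 lay at 5.84 and 5.87 in the AGM lines AM14-1C4 and AM30-3F4. In the FL lines 2012 and AFT011 it lay at 8.83 and 5.64. Among 52 imprinted genes, 5 were higher in the AGM lines and 3 in the FL lines (9.62% and 5.77%, against 4.01% and 3.72%); the first count was 3 without replicate 2 of AFT024. Grb10, a growth-restraining adaptor protein, was higher in the AGM lines by 1.68 ± 0.0953, and Peg3, a zinc finger protein, in the FL lines, with a difference of -2.93 ± 0.34.

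Chemokines and interferon-responsive genes included FL-high members whose signals differed widely between the 2 FL lines. Cxcl10, a chemokine for T cells, ran from 8.88 to 12.82 in the FL arrays and from 6.59 to 7.27 in the AGM arrays, and Ccl5 from 8.21 to 11.45 against 7.01 to 7.19. Their line means were 12.65 and 11.14 in AFT024, and 9.23 and 8.43 in BFC012. Of 42 measured interferon-responsive genes, 3 were called higher in the FL lines (7.14%, against 3.72% of all genes): Ifit1 (-2.76 ± 0.942), Ifit2 (-1.09 ± 0.184) and Irgm1 (-1.36 ± 0.0707), and the median over the list was -0.604. In the other lines described below, the list's median had the opposite sign, at 0.329. Ifit1 differed there by 1.42, Ifit2 by -1.15 and Irgm1 by -0.38. Ccl9 was higher in the UG26 lines than in AFT024 and BFC012, at 9.03 to 10.13 against 6.06 to 7.95. Complement and coagulation genes were called in the AGM direction in 6 of 30 (20%, against 4.01%) and in the FL direction in 1 (3.33%, against 3.72%), with Cd55, the decay-accelerating factor, at 6.86 to 8.52 against 3.68 to 4.04 and F3, tissue factor, at 10.69 to 11.33 against 8.68 to 9.15. With the 6 BM arrays added to the fit, 3 complement and coagulation genes were called in the AGM direction.

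Of 37 cell cycle genes, 3 were higher in the FL lines (8.11%, against 3.72% of all genes). Ccnd2, a D-type cyclin, ran from 12.3 to 12.67 in the FL arrays, while the AGM lines were apart at 10.82 in UG26.1B6 and lower in UG26.3B5, with a lowest array of 7.62. Ccnd1 differed by -1.20 ± 0.0985 and Gins2, a replication helicase subunit, by -0.86 ± 0.0693. The list's median was -0.0131. Of 24 adipocyte genes, 5 were higher in the AGM lines (20.8%, against 4.01%), namely Fabp4, Plin4 (3.01 ± 0.949), Ebf1 (3.43 ± 1.61), Cd36 (1.32 ± 0.497) and Cidec (0.65 ± 0.137). That count was 3 without replicate 2 or 3 of UG26.1B6, replicate 2 of AFT024 or replicate 1 or 2 of BFC012.

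**Figure D3:**
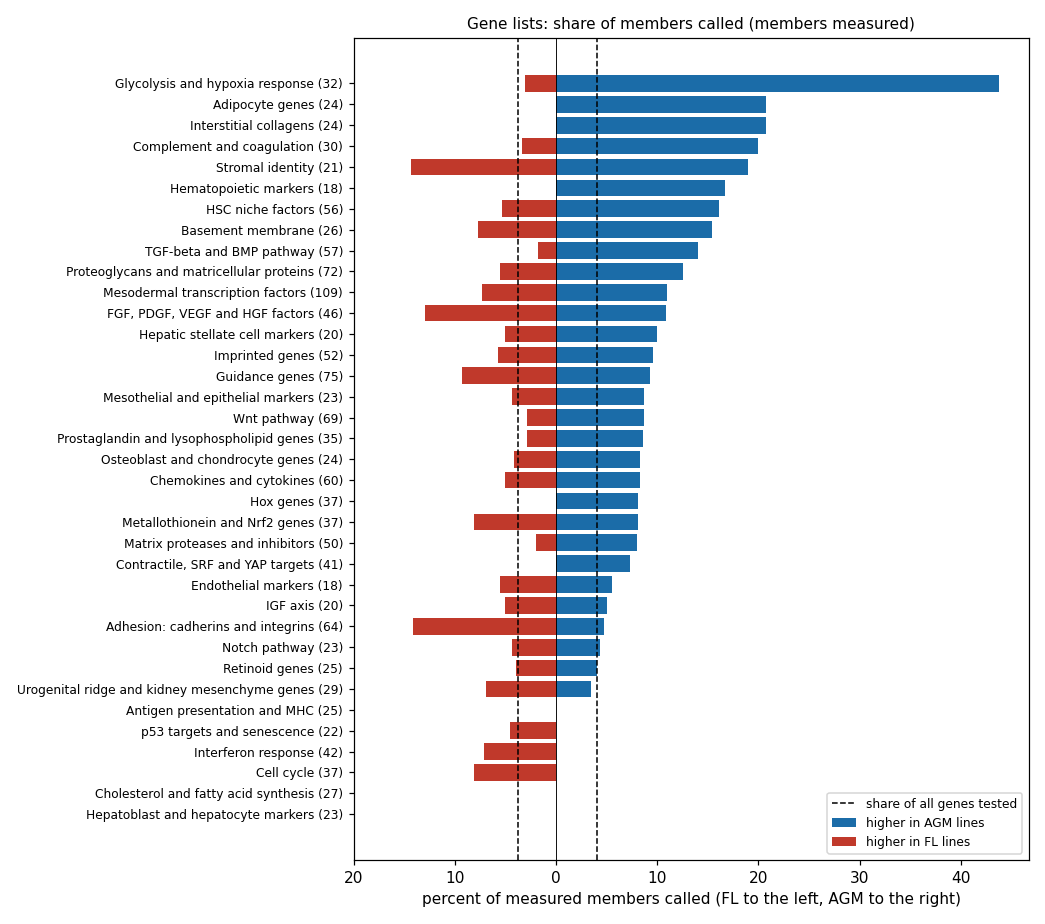
For each gene list, the percent of its measured members called higher in the AGM lines and the percent called higher in the FL lines, drawn to the right and to the left of 0, with dashed lines at the shares over all genes and the number measured in brackets. The glycolysis and hypoxia list reaches 43.8% in the AGM direction, where all genes reach 4.01%.

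The same tissues were also represented by other clones, on arrays that were normalized separately. AM14-1C4 and AM30-3F4 come from AGM at embryonic day 11 and 2012 and AFT011 from FL at embryonic day 14.5, from the same strains as above, and they share no array with the 4 lines. In these other lines, 1515 genes (7.60%) were called by all 4 contrasts, 707 higher in AGM (3.55%) and 808 higher in FL (4.05%). Line means were separated by tissue in 30.3% of all genes, a share that again carries no test and does not measure a tissue effect. Limma with the line as unit called 0 of 19938 genes there, with 1175 at an unadjusted p under 0.05 and a smallest adjusted p of 0.187. The lines of a tissue were far apart in this set: AM14-1C4 and AM30-3F4 differed in 7536 genes (37.8%) and 2012 and AFT011 in 6754 (33.9%).

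In both sets of lines, 258 genes (1.29% of all) were called in the same direction, 126 higher in AGM (0.632%) and 132 higher in FL (0.662%), and 53 were called in opposite directions, among them Ripk3, the kinase upstream of Mlkl, at 10.69 to 11.13 in the UG26 arrays and 8.76 to 9.51 in the FL arrays but lower in AGM in the other lines. The 258 are 16.8% of the 1540 called here and 17% of the 1515 called there. The difference in the other lines had the same sign for 1078 of the 1540 (70%), against 55.9% of all genes, and the differences correlated at 0.291 across genes. The median size of the difference over the 1540 was 0.82 here and 0.30 in the other lines, against 0.11 and 0.09 over all genes. The difference between the sets of lines was tested directly in limma: 0 genes passed, with 1498 at an unadjusted p under 0.05 and a smallest adjusted p of 0.0784.

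**Figure D4:**
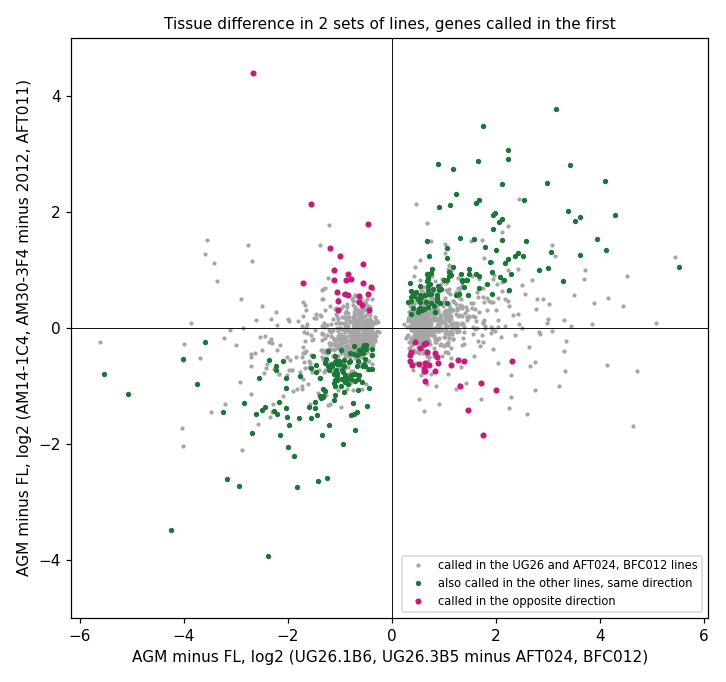
AGM minus FL difference (log2) in the 4 lines on the horizontal axis and in the other lines on the vertical axis, 1 point for each of the 1540 genes called in the 4 lines, green where also called in the same direction in the other lines (258) and magenta where called in the opposite direction (53). Most points lie closer to 0 on the vertical than on the horizontal axis, with medians of the absolute difference of 0.30 and 0.82. The genes were chosen by their values on the horizontal axis, which by itself widens the spread along it.

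Genes with the widest gaps shared by both sets were picked after their values were seen. Ifi202b, an interferon-inducible DNA sensor whose expression is known to vary between mouse strains, lay at 7.15 in both UG26 lines and at 4.00 and 4.01 in AFT024 and BFC012. In the other lines it lay at 9.99 and 6.57 in AM14-1C4 and AM30-3F4 and at 4.53 and 4.47 in 2012 and AFT011. In each set both AGM lines were thus above both FL lines, and AGM and FL lines also differ in strain. The BM lines BMC9 and BMC10, both of strain H2ts6, lay apart at 8.06 and 4.05. The part of strain in these values was not tested. Of 7 measured genes listed as variable between strains, it was the only one called in the 4 lines (14.3%, against 4.01% of all genes).

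Has2, the hyaluronan synthase of mesenchyme, differed by 1.74 here and 3.48 in the other lines, Plpp3, a lipid phosphatase that degrades lysophosphatidic acid, by 2.97 and 2.50, and Ebf1, a transcription factor of B cells and stromal progenitors, by 3.43 and 2.80. Ccl9 (2.54 and 2.21) and Jam2 (2.57 and 1.5) completed the described AGM-high genes. In the FL direction, Sprr1a differed by -4.25 and -3.49, Sfrp2 by -2.39 and -3.93, Zfpm2 by -2.70 and -1.82 and Sod3 by -3.24 and -1.45. Of the glycolysis and hypoxia list, 7 members were called higher in AGM in the other lines, and 5 of the 14 were called in both sets: Pfkl, Pgk1, Bnip3, Vegfa and P4ha1. Other lists did not all keep their lean. In the other lines, of 64 adhesion genes 10 were called higher in AGM and 4 higher in FL. Of 57 TGF-beta and BMP genes 1 and 3 were called, and of 24 collagens 1 and 1. Of 42 interferon-responsive genes 1 and 1 were called, and their median difference was 0.329 there against -0.604 in the 4 lines. The counts were 9 and 6 of 56 niche factors, 11 and 3 of 72 proteoglycans and matricellular proteins, and 4 and 1 of 24 adipocyte genes. Over all genes the shares there were 3.55% and 4.05%.

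The genes with the widest gaps in the 4 lines mostly were not those shared with the other lines. Of the 14 named in the AGM direction, 4 were called in the same direction there, and of the 14 in the FL direction, 6. Slc6a15 lay at 6.92 in AM14-1C4 and at 4.58, 4.56 and 4.50 in AM30-3F4, 2012 and AFT011. Cd34 divided the other lines within tissues, at 10.90 in AM14-1C4, 6.50 in AM30-3F4, 6.41 in 2012 and 11.49 in AFT011. A gap across all 12 arrays of the 4 lines was thus not always found in other clones of the same tissues.

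The adult bone marrow lines BMC9 and BMC10, from another strain (H2ts6) and normalized together with the 4 lines, gave a further point. Of the 799 genes higher in the AGM lines, both BM lines were nearer to the FL lines for 364 (45.6%) and nearer to the AGM lines for 218 (27.3%). Of the 741 genes higher in the FL lines, both were nearer to the FL lines for 338 (45.6%) and nearer to the AGM lines for 233 (31.4%). In 45 AGM-high genes both FL lines lay below the first quartile of all genes with both AGM lines above it, and in 32 FL-high genes the reverse held.

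Called genes were not spread evenly over the chromosomes. Chromosome 8 carried 961 of the placed genes and 172 of the 741 FL-high calls (23.2%), so that 17.9% of its genes were called higher in the FL lines against 3.72% of all genes, while 13 were called higher in the AGM lines. The next chromosome by count was 7, with 92 FL-high calls (5.29% of its genes). Genes above the median signal were ordered along each chromosome and taken 50 at a time. The largest part of the excess, 109 of the 172 calls, lay in the last 4 groups of chromosome 8. These run from Tmem208 to Itgb1, and the last of them holds 18 genes. The earlier groups of chromosome 8 also had negative medians, from -0.34 to -0.11, with 3 to 11 FL-high calls a group. This pattern and its bounds were chosen after the values were seen.

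Of the 168 genes in that end of chromosome 8, 156 had a negative AGM minus FL difference, 109 were called higher in the FL lines and none in the other direction. The median difference was -0.80, with medians of -0.51, -0.95, -0.77 and -0.81 in the 4 groups, whereas the full groups on other chromosomes had medians between -0.38 and 0.32. Against the mean of the BM lines, the median gene of this region lay at -0.59 in UG26.1B6 and -0.55 in UG26.3B5, and at 0.24 in AFT024 and 0.21 in BFC012. In the other lines the median difference of the same genes was -0.28, and 24 were called higher in FL. Mlkl, Nqo1, the quinone reductase of the NRF2 response (-3.60 ± 0.613), Gins2 and Itgb1 (-0.66 ± 0.0967) lie there. DNA copy number was not measured, and its part in these calls was not tested. Without chromosome 8, 1340 genes were called, 776 higher in the AGM lines and 564 higher in the FL lines, so that the AGM share was 57.9% in place of 51.9%.

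**Figure D5:**
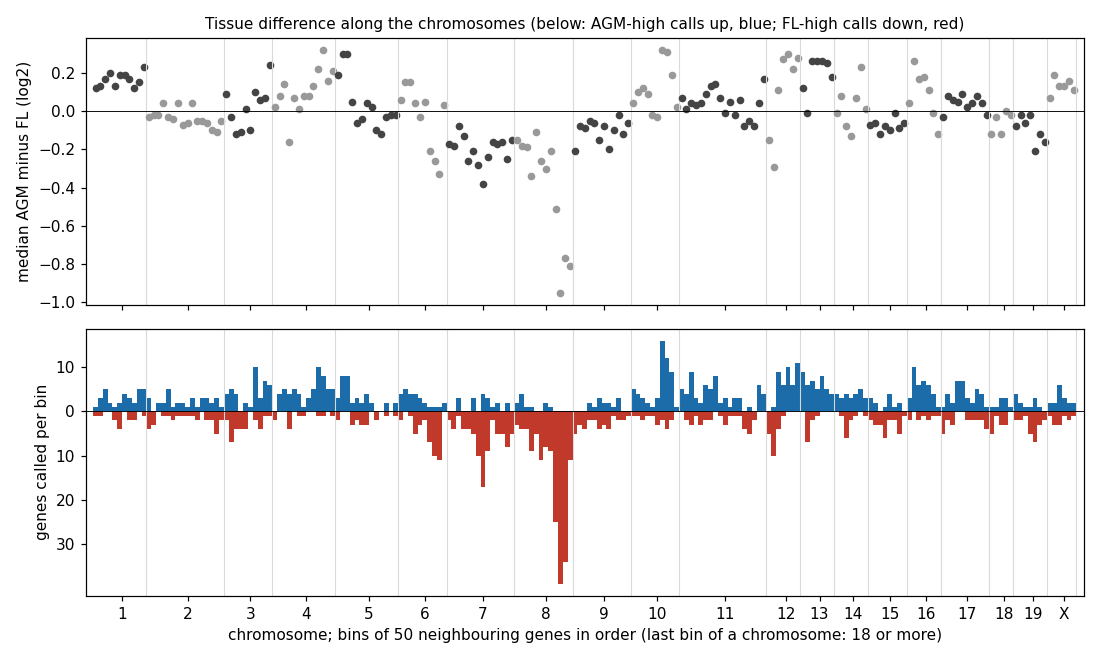
Upper panel, the median AGM minus FL difference (log2) for consecutive groups of 50 genes above the median signal along each chromosome (last groups of a chromosome with fewer than 18 genes are not drawn), and lower panel, the number of genes called per group, AGM-high upward in blue and FL-high downward in red. The last 4 groups of chromosome 8 have medians from -0.95 to -0.51, while full groups of other chromosomes lie between -0.38 and 0.32.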

How the data were processed

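The platform was the Affymetrix Mouse Gene 1.0 ST array. The deposited values are log2 signals made by the authors with RMA in Partek, per the submitters' processing notes, while versions and genome build are not given in the sources used here. In all, the 51 arrays of 17 groups were normalized in separate sets, so the other AGM and FL lines were compared only within their own set. Median signals of the 18 arrays normalized with the 4 lines were 6.82 to 6.95, and the number of arrays limits the precision.

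Of 35556 probe sets, 21789 name 1 gene in the platform annotation, 1621 several and 12146 none. Genes with several probe sets (999) took the one with the highest mean, which left 19938 genes, all tested without a filter on low signals, and 19856 matched the RefSeq gene table. Tests used limma 3.58.1 in R 4.3.3 with Benjamini-Hochberg adjustment over all genes at 0.05: 4 cross-line contrasts on 12 arrays, and a fit of 4 line means. SE after a tissue difference is that of line means.

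Named genes are the 14 per direction with the widest gap among called genes whose arrays all separate (clone-like symbols left out), up to 6 called members by gap for each described list, defining markers and genes called on line means. Further list members, relatives of Serpinb9e, genes of both line sets and the chromosome 8 groups were chosen after values were seen. Members and lists were chosen with earlier results of these data known. Shares of lists not described are in the plot of shares by list, except 4 sex chromosome genes, of which none was called. The steps were tested on simulated data. Alternatives changed normalization, probe set choice, filters, thresholds, fits and the arrays or lines included.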

Additional observations from a re-analysis of the deposited data

Results flagged for a closer look

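The genes below were called in opposite directions in the 2 sets of lines, with arrays fully separated by tissue in each. The difference between the sets was tested in limma on 8 line means, and none passed over all genes.

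Glipr1, a secreted CAP-family protein, was higher in AFT024 (8.5) and BFC012 (10.11) than in UG26.1B6 (6.14) and UG26.3B5 (7.13), but higher in AM14-1C4 (11.83) and AM30-3F4 (12.5) than in 2012 (6.2) and AFT011 (9.32). The AGM minus FL difference was -2.68 here and 4.40 there, and the difference between the sets was -7.08 ± 1.57 (SE), with an adjusted p of 0.375. Ripk3, the kinase that activates Mlkl in necroptosis, lay at 10.82 and 11.09 in the UG26 lines against 9.37 in AFT024 and 9.05 in BFC012, and at 6.6 and 6.64 in AM14-1C4 and AM30-3F4 against 8.70 in 2012 and 8.23 in AFT011. Its difference between the sets was 3.59 ± 0.282, with an adjusted p of 0.172. Both genes were chosen after their values were seen, as the widest opposite difference of each sign in the other lines.

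Nrp2, a semaphorin and VEGF co-receptor, lay at 11.16 and 11.2 in the UG26 lines against 10.02 in AFT024 and 8.37 in BFC012. In the other lines it lay at 8.97 and 8.58 in AM14-1C4 and AM30-3F4 against 9.70 in 2012 and 9.98 in AFT011. Its difference between the sets was 3.05 ± 0.732, with an adjusted p of 0.395. Among called list members, the difference between the sets was 0.90 for Wls (adjusted p = 0.227), 1.24 for Bmp2 (0.293), -1.77 for Etv5 (0.372), 1.82 for the glypican Gpc6 (0.25) and -3.68 for the microfibril protein Mfap2 (0.636).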

How the results depend on the processing

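The count of genes called with the line as unit (11) was the least stable, since it rests on 4 line means. It was 29 with each array centred on its median, 7 with the 12 arrays quantile normalized by themselves, 61 with trend and robust variance estimates, 171 with the BM lines in the fit, 2340 with the line as a random block and 3969 with the 12 arrays as replicates. It was 0 without the line UG26.1B6, 0 without UG26.3B5, 1378 without AFT024 and 796 without BFC012, where 1 line stands for a tissue. Leaving out 1 array gave 4 to 34 genes. The count from all 4 contrasts (1540) was 305 with a factor of 2 required, 940 at an adjusted p under 0.01, 2439 without UG26.1B6, 3962 without AFT024 and 3147 without BFC012, where only 2 contrasts have to pass, and 1230 to 1532 without 1 array. Separated genes (9014) numbered 13779, 13897, 15204 and 15024 without UG26.1B6, UG26.3B5, AFT024 and BFC012, and 8617 to 9150 without 1 array. In the other lines the line fit called 19 genes without AM30-3F4 and 0 to 0 without any 1 array, the 4 contrasts called 1273 to 1797 without 1 array, and the test between the sets of lines 0 to 1. The cause of these shifts was not tested, apart from the number of contrasts or lines.

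Replicate numbers paired the UG26 lines with each other (correlations of deviations 0.535, 0.327 and 0.468) but not AGM with FL lines (-0.37 to 0.208), and a fit with the replicate block called 1580 genes, 802 higher in AGM. For the named genes, 633 values under the alternatives kept direction and side of the threshold, 53 no longer passed, 112 newly passed and none changed sign. The call of Cd34 with the line as unit was lost when the 12 arrays were quantile normalized by themselves and without replicate 2 of UG26.1B6, as were those of Aqp7 and Fabp4, and the line calls of all 11 genes were lost without either UG26 line. List counts of 1 to 3 in the FL direction, such as those of the Wnt, TGF-beta and basement membrane genes, moved by 1 gene under several single-array omissions. The setting without chromosome 8 was chosen after seeing the data.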
